A study of Homo sapiens with 42 samples.

Results

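SCC090 is a head and neck squamous cell carcinoma (HNSCC) cell line, and its 3 untreated arrays were set against the 15 untreated arrays of 5 other HNSCC lines, SCC25, SQ20B, SCC61, SCC047 and 93VU147T. These 18 of the 42 arrays of the series were chosen by their labels alone, as the control arrays of the 6 lines that also have treated arrays, with 3 control arrays each. The platform was the Affymetrix hgu133plus2.0 array, on which a gene is read by 1 or more probe sets, and levels are log2 values, so that a difference of 1 is a 2-fold difference. The treated counterparts, 3 arrays in each of the 6 lines, received 100 nM cetuximab, an antibody that blocks ligand binding to the epidermal growth factor receptor (EGFR), for 24 hours, and they are used below as another set of arrays of the same lines. The labels give the control cells no agent, while the methods of the study name phosphate-buffered saline. The study classes SCC047, SCC090 and 93VU147T as positive for human papillomavirus (HPV) and SCC25, SQ20B and SCC61 as HPV-negative, and it describes EGFR amplification in SQ20B and a PIK3CA mutation in SCC61. Each group is 1 cell line, so the comparison shows how SCC090 differs from these 5 lines and cannot separate the line from its HPV status or from any mutation it carries. Whether the 3 arrays of a line came from separate cultures is given by no source, and p-values then reflect only how far those arrays vary, possibly for technical reasons.

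HNSCC arises from the stratified squamous epithelium of the mouth and throat, whose basal cells are marked by keratins 5 and 14 and divide under the control of EGFR signalling through the ERK kinases. Cell lines from such tumours differ in how much of the basal, differentiating or mesenchymal expression program they keep, and in how active their interferon and inflammatory genes are without any stimulus. In HPV-positive cells the viral oncoproteins inactivate p53 and the retinoblastoma protein, and the cell cycle inhibitor p16, encoded by CDKN2A, is typically abundant.

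The arrays of a line agreed closely. Pearson correlations over 19740 genes, each read by its brightest probe set on average across the series, were 0.9907 to 0.998 within lines. SCC090 control replicate 1 stood somewhat apart from replicates 2 and 3, with correlations of 0.9907 and 0.9915 against 0.9972 between the other two. In 191 genes it lay at least 1 log2 unit from both of them on the same side, against 0 and 1 genes for replicates 2 and 3, and 45 of the 191 are among the genes set apart (defined below). Without this array the counts of genes set apart were 486 higher and 371 lower, against 469 and 349 with it. One control array of another line, SQ20B replicate 3, was scanned in a different batch from all other arrays of the 6 lines, and without it the counts were 467 and 348. The 3' minus 5' log2 signal, a measure of RNA integrity, was highest in SCC090 for ACTB, at 0.35 against 0.26 to 0.34 in the other lines, and lowest for GAPDH, at 0.042 against 0.057 to 0.139.

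SCC090 was the line with the least EGFR transcript. EGFR, the receptor that cetuximab binds, read 9.17, 9.49 and 9.51 in the 3 SCC090 arrays. The 15 arrays of the other lines ran from 10.53 to 12.99 with a median of 11.30. The arrays read RNA of whole cultures, in which fewer expressing cells and less transcript per cell cannot be told apart. All SCC090 arrays lay below every other array, and SCC090 was 4.64-fold lower than their mean (log2 difference -2.21, SE 0.125, adjusted p = 6.27e-12 from limma). The nearest line, 93VU147T at 10.90 ± 0.49 (SD, n = 3), was 2.84-fold higher, and SQ20B was highest at 12.91 ± 0.08 (SD, n = 3). Of the 9 probe sets for EGFR, 6 placed SCC090 below every other array and 8 gave it the lowest line mean. For the other receptors of the family SCC090 lay inside the range. ERBB2, the partner receptor HER2, read 8.53, 8.94 and 8.81 against 7.71 to 8.87 in the other lines. ERBB3, the neuregulin receptor, read 8.95, 9.21 and 9.29 against 6.89 to 9.28. Both overlapped the other lines and both were higher than their mean, by 0.60 (SE 0.0672, adjusted p = 1.65e-07) and 0.93 (SE 0.0682, adjusted p = 3.43e-10) in limma. None of their probe sets was outside the range. The 2 of the 5 for ERBB3 that gave SCC090 the lowest line mean were dim, at 4.52 and 4.19. Another for ERBB3 gave it the highest line mean, at 8.44, as did the ERBB2 probe sets not used, at 6.46 and a dim 4.15. In the cetuximab arrays ERBB2 read 8.92, 8.91 and 9.02, above the 7.98 to 8.80 of the 5 other lines. ERBB4, named after its values were seen, was dim in every line, at 4.21, 4.33 and 4.39 against 3.93 to 4.57 (0.02, SE 0.0811, adjusted p = 0.822).

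By the number of genes passing limma, the transcript response of SCC090 to cetuximab was the smallest of the 6 lines. In SCC090 277 genes, 1.40% of those tested, passed limma between the cetuximab and control arrays, against 3162 to 8722 in the other lines. This count does not give the size of the changes, and it was not recomputed without SCC090 control replicate 1. EGFR itself differed by 0.002 log2 units between treated and untreated SCC090 (adjusted p = 0.998 from limma). The labels give a survival under cetuximab without a duration, and the methods of the study name 7 days for relative survival. The 39.07% of SCC090 lay among the values of the other lines, which ran from 7.61% in SCC25 to 40.16% in SCC61.

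SCC090 differed from the rest more than any of the other lines did in the same count. Here a gene is called outside the range where all 3 arrays of a line lie above, or all lie below, all 15 arrays of the 5 others. In SCC090 2088 genes lay above (10.6% of 19740) and 1867 below (9.46%), which together is 20.04% of genes, against 8.13% to 15.97% for the other lines treated the same way. In limma 12441 genes (63.0%) passed, of which 5650 (28.6%) were higher than the mean of the 5 lines and 6791 (34.4%) lower, and the median difference over all genes was -0.07. A gene is called set apart where it is outside the range, passes limma at an adjusted p under 0.05 and lies at least 1 log2 unit from the nearest of the 5 line means. This left 469 genes set apart higher (2.38%) and 349 set apart lower (1.77%). The total of 818 compares with 212 in SCC25, 324 in SQ20B, 413 in SCC61, 288 in SCC047 and 242 in 93VU147T. The correlation of line means over genes was 0.893 to 0.914 between SCC090 and each other line and 0.924 to 0.948 among the 5 others, as a description over genes that share the platform. At the edge of the definition, P2RY1 lay 1.001 above its nearest line and was counted, AGO4 lay 0.996 above and was not, IL6 at a distance of -1.005 was counted, and IL31RA at -0.998 was not.

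**Figure D1:**
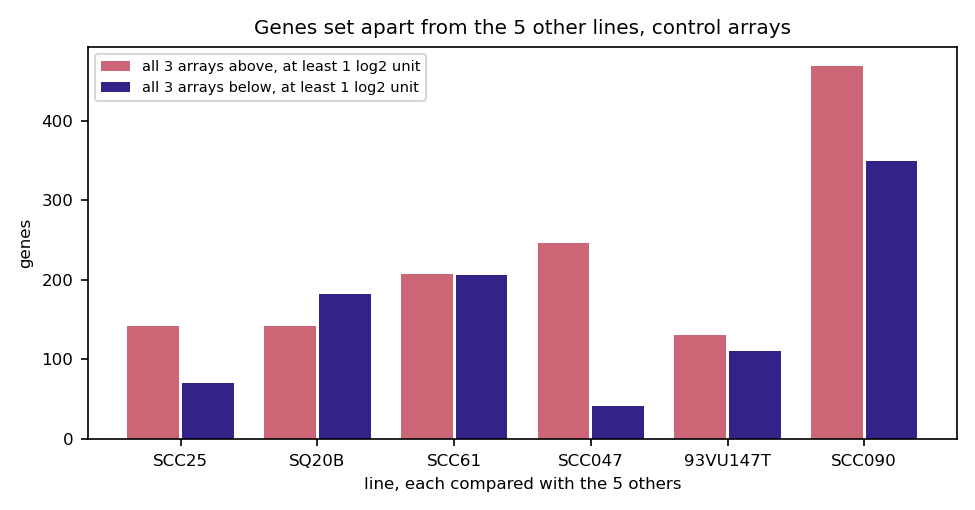
Bars give the number of genes set apart in each line from the 5 others (all 3 control arrays outside all 15 others, limma adjusted p under 0.05, at least 1 log2 unit to the nearest line mean), with higher and lower genes side by side. SCC090 has the most in both directions, 469 higher and 349 lower, and the next line in total is SCC61 with 413.

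Many of these genes were dim on one side of the comparison. Of the 469 higher genes, 226 had all 5 other line means under 6 on the log2 scale, and of the 349 lower genes 211 had an SCC090 mean under 6, where the median of all probe sets on the arrays is 5.13. The median distance to the nearest line was 2.71-fold among the higher and 3.13-fold among the lower genes. Since the members were chosen for this distance, these values describe them and are no test. The files hold no detection calls, so a dim reading cannot be told from probe background, and a fold against it is a fold of signal that can understate the difference in transcript.

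NTS had the largest distance above the other lines. NTS, the precursor of the peptide neurotensin, read 12.63, 12.66 and 12.87 in SCC090. The other 15 arrays lay between 3.64 and 5.62 with a median of 3.89, so there was no overlap. All 5 other line means, at 4.36 or less, were under the median of all probe sets, 5.13, and against these dim readings the NTS signal was 328-fold above the nearest line and 424-fold above the mean of the 5 (log2 difference 8.73, SE 0.242, adjusted p = 9.71e-17 from limma). Its 1 probe set was also low in HaCaT keratinocytes, at 4.38 to 4.73. SDC2, a cell surface heparan sulfate proteoglycan, read 9.97, 9.72 and 9.76 against 4.18 to 5.08, without overlap (log2 difference 5.25, SE 0.0829, adjusted p = 3.48e-20). NEFH, the heavy neurofilament subunit of neurons, read 9.15, 9.20 and 9.15 against 4.34 to 4.74, again without overlap (4.61, SE 0.0838, adjusted p = 2.34e-19). All 3 probe sets of SDC2 and both of NEFH placed SCC090 above every other array.

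FOXE1 and TRMO, neighbouring genes on chromosome 9 in RefSeq (assembly GRCh38.p14), were both among the 20 furthest above. FOXE1, a forkhead factor of thyroid and palate development, read 12.05, 11.96 and 11.95 in SCC090. The other lines ran from 3.75 to 8.03 with a median of 7.25, so SCC090 stood apart from a group that was itself spread widely. The log2 difference was 5.35 (SE 0.0912, adjusted p = 1.05e-19 from limma), and 4.67 without SCC61, the line with the least FOXE1. TRMO, a tRNA methyltransferase, read 11.93, 11.83 and 11.74 against 6.46 to 7.75, without overlap (4.69, SE 0.0825, adjusted p = 1.54e-19). Both probe sets of FOXE1 and all 3 of TRMO were outside the range.

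SOX2-OT and SOX2 were also high together. SOX2-OT is a long non-coding RNA gene on chromosome 3 within which SOX2, a factor of stem and progenitor cells, lies in the same assembly. SOX2-OT read 8.45, 6.58 and 7.56 against 2.87 to 3.26, a wide spread within SCC090 but no overlap (4.52, SE 0.202, adjusted p = 1.63e-13). SOX2 read 12.48, 11.94 and 12.16 in SCC090. Among the other lines SCC047 came near at 11.12 ± 0.18 (SD, n = 3), and the remaining 4 line means ran from 3.57 to 6.20. The difference of SOX2 from the mean of the 5 lines was therefore 6.06 (SE 0.259, adjusted p = 8.37e-14 from limma) while the distance to SCC047 was 1.07, and without SCC047 the difference was 7.31.

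The rest of the 20 held genes of several kinds. FRAS1 and FREM2, partners in a basement membrane complex, read 10.19, 10.18 and 10.14 against 4.16 to 6.77 for FRAS1. FREM2 read 7.20, 6.64 and 7.14 against 2.94 to 3.41. Both were without overlap, with log2 differences of 4.58 (SE 0.204) and 3.83 (SE 0.101), although only 3 of the 6 FRAS1 probe sets were outside the range. COL15A1, a basement membrane collagen, read 9.68, 6.08 and 7.01 against 3.00 to 3.52. Its size rested on the array: the log2 difference was 4.33 with all arrays, 3.29 without replicate 1 and 5.09 without replicate 2. HMCN1, an extracellular matrix protein, read 8.15, 7.29 and 7.73 against 3.05 to 4.49 (log2 difference 4.22, SE 0.136). GUCY1B1, the beta subunit of the nitric oxide receptor guanylate cyclase, read 8.93, 8.58 and 8.58 against 3.58 to 4.61. PKDCC, a secreted kinase, read 8.78, 9.88 and 9.88 against 5.11 to 5.43. In the same group HEY1, CAND2, RTN1, RUNDC3B, PPM1H, AMDHD1, ABCA13 and FBLL1 were 11.4-fold to 16.8-fold above their nearest line. FBLL1 carries a limit: 1 of its 2 probe sets was outside the range, and the other gave a log2 difference of -0.20. Of the 20 genes, 13 had several probe sets, and in 9 of these every probe set was outside the range on the same side.

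MSN had the largest distance below the other lines. MSN, encoding moesin, which ties the plasma membrane to cortical actin, read 5.04, 5.63 and 5.16 in SCC090. The other 15 arrays lay between 10.90 and 12.03, so the gap was wide and the other lines close to each other. MSN was 55.4-fold below the nearest line (log2 difference from the mean of the 5 -6.14, SE 0.0898, adjusted p = 1.19e-20 from limma), on 1 of its 2 probe sets. TGFBI, a secreted adhesion protein induced by TGF-beta, read 6.03, 5.54 and 5.63 against 11.14 to 12.85, without overlap (-6.43, SE 0.0768, adjusted p = 8.62e-22). THBS1, the matrix glycoprotein thrombospondin 1, read 4.56, 3.96 and 4.33 against 9.60 to 11.36, without overlap on 6 of its 7 probe sets (-6.13, SE 0.139, adjusted p = 5.59e-18). AXL, a receptor tyrosine kinase, read 4.21, 4.00 and 4.23 against 8.90 to 10.77 on the probe set used, and both of its probe sets were below the range (-5.73, SE 0.0704, adjusted p = 8.74e-22).

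IFITM3 and IFITM2, antiviral membrane proteins, followed the same pattern. IFITM3 read 5.52, 5.95 and 5.79 in SCC090 against 11.21 to 13.49 in the others, with no overlap (log2 difference -6.71, SE 0.0806, adjusted p = 8.62e-22 from limma). IFITM2 read 5.57, 5.79 and 5.61 against 10.39 to 13.04 (-6.12, SE 0.0745, adjusted p = 8.62e-22). The IFITM genes are near-identical in sequence, each is read here by 1 probe set, and these probe sets may not separate them. GSDME, a pore-forming gasdermin, read 6.40, 4.40 and 4.88 against 9.95 to 11.07, with replicate 1 the highest of the 3 (-5.30, SE 0.228). ETS1, a transcription factor of invasive cells, read 3.36, 3.23 and 3.18 against 7.41 to 10.73, and CCND2, cyclin D2, read 3.86, 4.01 and 3.77 against 7.81 to 11.94. Both were without overlap on every probe set, 3 for ETS1 and 4 for CCND2. The remaining genes of the 20 were MGST1, MBNL2, C19orf33, EFEMP1, SPIN4, TRIM6, UCA1, NTN4, IGFBP6, COL12A1 and LAMB1, which lay 15.6-fold to 27.6-fold below their nearest line. MGST1 is a detoxifying membrane transferase, EFEMP1 a fibulin, UCA1 a long non-coding RNA, and COL12A1 and LAMB1 are matrix chains. Of the 20 genes, 10 had several probe sets, and in 6 of these every probe set was outside the range on the same side.

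**Figure D2:**
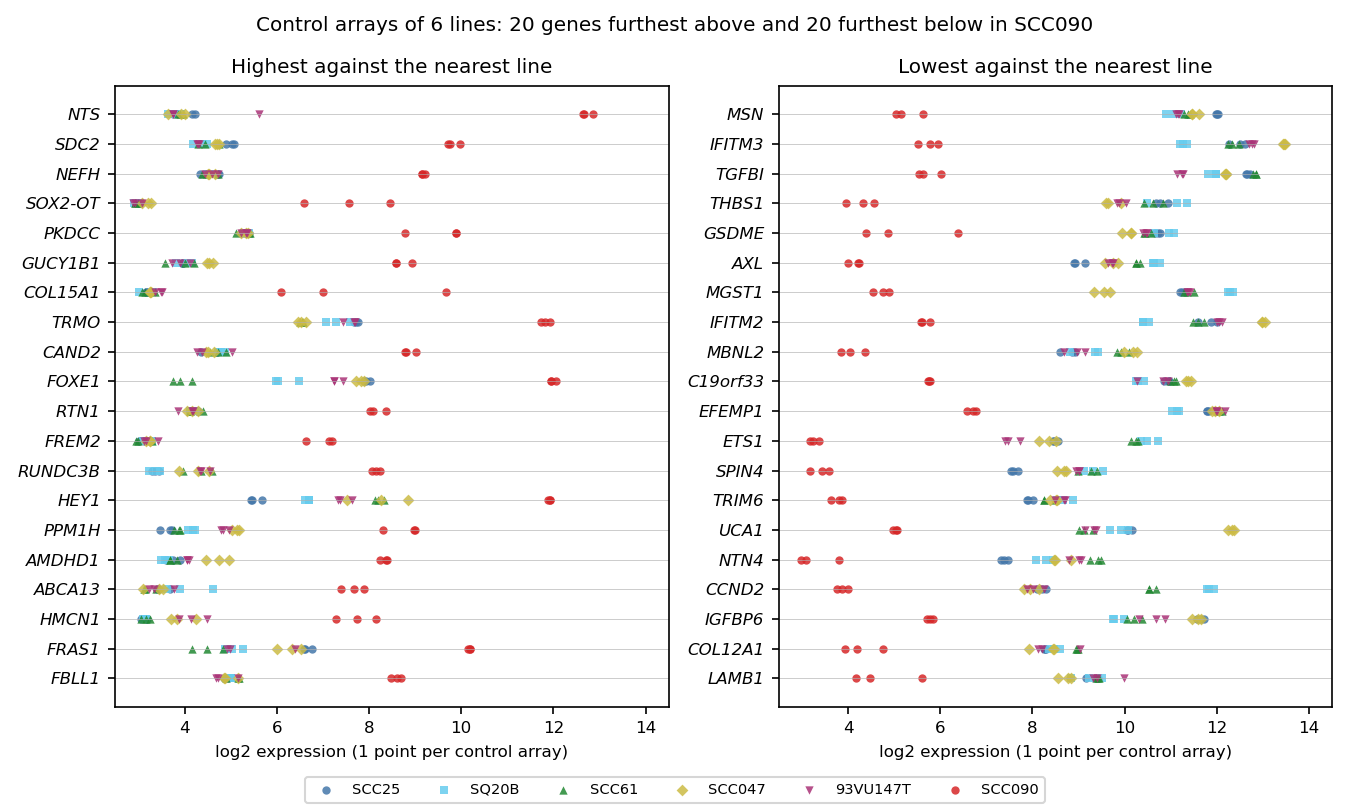
Each point is 1 control array of 1 line on the log2 scale, for the 20 genes whose SCC090 mean lies furthest above the nearest line (left) and the 20 furthest below (right), ordered by that distance. The SCC090 arrays, in red circles, sit clear of all others in every row, from NTS at 12.63 to 12.87 at the top of the left panel to MSN at 5.04 to 5.63 at the top of the right panel.

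Genes of the interferon response were lower throughout. These genes are induced when interferon receptors activate STAT factors, and many restrict viruses. Of 25 measured members, 25 passed limma as lower and 0 as higher (34.4% and 28.6% of all genes), and 14 lay below all other arrays (9.46% of all genes). The median difference was -2.21, against -0.07 over all genes. IFIT3, which binds viral RNA with its relatives, read 3.50, 3.52 and 3.46 in SCC090. The other lines ran from 6.84 to 11.45 with a median of 9.40, without overlap and with a wide spread of their own (log2 difference -5.82, SE 0.121, adjusted p = 1.60e-18 from limma). IFIT1, the cap-binding member of that family, read 4.77, 5.27 and 5.15 against 6.35 to 10.91 (-3.69, SE 0.156). IFI44 read 4.16, 3.79 and 3.93 against 5.28 to 9.31 (-3.78, SE 0.116), and 1 of its 2 probe sets was below the range. BST2, the tetherin that holds budding virions at the surface, read 4.24, 4.64 and 4.42 against 5.70 to 10.74 (-3.83, SE 0.110). These 4 members were set apart, and for each the nearest other line was a low one: SQ20B was the next lowest in IFIT1, IFI44 and BST2, and 93VU147T in IFIT3. BST2 depended most on the lines compared, at -4.45 without SQ20B and -3.23 without SCC047. The counts of the other lists below are to be read against the same shares of all genes, 28.6% higher, 34.4% lower, 10.6% above and 9.46% below the range. In 11 of the 25 members at least 1 array of another line reached the SCC090 arrays, IFI27 among them, named here after its values were seen: SCC090 read 4.86, 5.2 and 5.0, while SQ20B averaged 4.45 and SCC25 12.85.

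Antigen presentation genes showed the same direction. They cut proteins into peptides, carry the peptides into the endoplasmic reticulum and load them on MHC molecules. Of 22 measured members, 21 passed as lower (95.5%, where 34.4% of all genes did) and 0 as higher, 12 lay below all other arrays (54.5%, where 9.46% did), and the median difference was -1.55. PSMB9, an immunoproteasome subunit, read 4.35, 4.27 and 4.58 against 7.97 to 11.26, without overlap (log2 difference -5.53, SE 0.104, adjusted p = 4.17e-19 from limma). Its partner subunit PSMB8 read 5.28, 5.58 and 5.53 against 8.58 to 10.17 (-3.95, SE 0.0919). The peptide transporter subunits were low in parallel. TAP1 read 6.26, 6.33 and 6.09 against 8.0 to 10.19 (-3.0, SE 0.0893), and TAP2 read 5.90, 5.15 and 5.35 against 8.08 to 9.13 (-3.18, SE 0.102). ERAP1, which trims peptides, read 5.69, 5.64 and 5.79 against 7.31 to 8.93 (-2.16, SE 0.0707) and was below the range on 2 of its 5 probe sets. Of 11 measured HLA genes, 11 passed as lower, 3 were below the range (HLA-C, HLA-E and HLA-DMB) and 0 were set apart, with SCC090 means from 4.06 to 9.92. HLA-C averaged 9.92 against 10.39 to 13.23 and the light chain B2M 11.77, 12.06 and 12.09 against 12.53 to 13.20, both below the range but within 1 log2 unit of the nearest line. HLA-E read 9.22, 9.28 and 9.22 against 9.34 to 11.93, below the range on all 3 of its probe sets. HLA-B, at 9.78, 9.78 and 9.73, overlapped SQ20B, whose mean was 9.82. HLA genes share sequence, so their probe sets may read more than 1 of them. These genes were named after their values were seen.

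**Figure D3:**
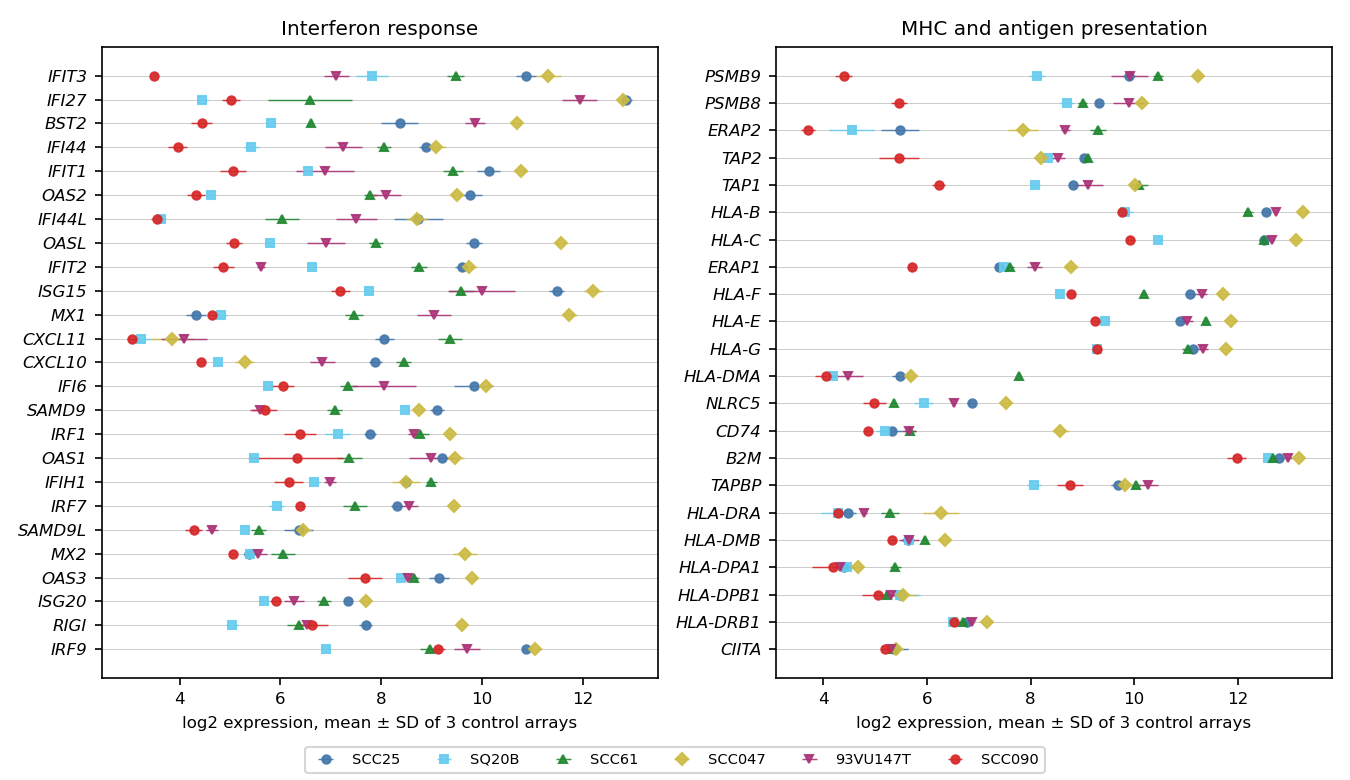
Points are line means of 3 control arrays with their SD, on the log2 scale, for the 25 measured interferon response genes (left) and the 22 measured antigen presentation genes (right), ordered by the difference of SCC090 from the mean of the 5 other lines. SCC090, in red, is at or near the left end of most rows, with SQ20B the line that most often comes next to it, as in HLA-B, where SCC090 averages close to the 9.82 of SQ20B.

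The promoters of 4 of the low genes are shown because they hold the letters to which interferon-activated factors bind. The motif searched was TTTCNNTTTC on both strands, the core of the interferon-stimulated response element, in the 250 bases before each RefSeq transcript start. Sequences are from RefSeq on assembly GRCh38.p14, written in the direction of transcription, with the bases of each match in capitals and overlapping matches merged.
IFIT1, chr10:89392373-89392622, plus strand: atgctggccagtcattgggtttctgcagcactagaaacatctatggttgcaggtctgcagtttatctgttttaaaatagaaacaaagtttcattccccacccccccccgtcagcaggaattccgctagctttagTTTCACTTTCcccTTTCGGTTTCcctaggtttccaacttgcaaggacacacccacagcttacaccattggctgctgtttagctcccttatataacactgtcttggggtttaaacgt
IFITM3, chr11:320861-321110, minus strand: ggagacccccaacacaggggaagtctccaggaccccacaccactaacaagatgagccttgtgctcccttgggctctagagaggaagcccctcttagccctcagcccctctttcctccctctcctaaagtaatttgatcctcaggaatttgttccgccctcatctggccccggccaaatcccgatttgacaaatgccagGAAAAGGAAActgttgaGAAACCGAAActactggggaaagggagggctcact
BST2, chr19:17405631-17405880, minus strand: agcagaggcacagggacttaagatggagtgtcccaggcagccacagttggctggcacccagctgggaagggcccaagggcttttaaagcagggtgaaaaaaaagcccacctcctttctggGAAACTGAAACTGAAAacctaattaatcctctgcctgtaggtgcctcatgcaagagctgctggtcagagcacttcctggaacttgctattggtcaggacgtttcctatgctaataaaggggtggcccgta
TAP1, chr6:32853705-32853954, minus strand: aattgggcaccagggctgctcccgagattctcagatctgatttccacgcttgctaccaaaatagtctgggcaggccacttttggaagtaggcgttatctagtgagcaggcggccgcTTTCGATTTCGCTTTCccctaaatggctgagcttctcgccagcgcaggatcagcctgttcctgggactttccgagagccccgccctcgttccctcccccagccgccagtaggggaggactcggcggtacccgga
IFIT1 holds matches that begin 116 and 103 bases before its start, BST2 130 and 124, TAP1 134 and 128, and IFITM3 52 and 35. A second TAP1 promoter in the table, chr6:32852762-32853011, holds 0 matches. A gene is counted below where at least 1 of its promoters holds the motif. In BST2 and TAP1 the pair overlaps. Of 269 genes set apart lower with a promoter in the table, 28 (10.4%) hold the motif, against 10 of 374 (2.67%) set apart higher and 521 of 15359 tested genes (3.39%). All promoter windows in the table gave 3.02%. Among interferon response genes 14 of 20 hold it, 8 of the 10 that lay below the range and 6 of the 10 that did not. A match describes the letters and not whether a factor binds, and motif content and the difference were not tested against each other.

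Inflammatory cytokines, which epithelial cells release to recruit leukocytes, were mostly lower. Of 29 measured members 19 passed as lower (65.5%, where 34.4% of all genes did) and 3 as higher, 13 lay below the range (44.8%, where 9.46% did) and 1 above, and the median difference was -1.0. IL18 read 4.08, 3.91 and 3.35 against 6.53 to 9.50, without overlap (log2 difference -4.81, SE 0.115, adjusted p = 1.20e-17 from limma). IL1A read 6.14, 5.54 and 5.72 against 8.47 to 11.98 (-3.98, SE 0.181), and IL1B read 5.89, 5.91 and 5.91 against 8.39 to 12.31 (-3.78, SE 0.125). CXCL8, the neutrophil attractant interleukin 8, read 3.74, 3.84 and 3.63 against 5.67 to 10.13 (-4.01, SE 0.148). CXCL2, IL32 and IL6 were set apart as well, with differences of -2.86, -3.10 and -2.15. In each of these 7 the SCC090 arrays were below every other array on the probe set used. IL1A was below the range on 1 of its 2 probe sets and CXCL2 on 1 of its 3.

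The list of proteases and the plasminogen system, which also holds protease inhibitors and clotting genes, was lower in most members. Of 23 members 19 passed as lower (82.6%, where 34.4% of all genes did) and 0 as higher, 9 lay below the range (39.1%, where 9.46% did), and the median difference was -1.53. MMP28, a metalloproteinase of keratinocytes, read 3.86, 4.23 and 3.70 against 7.44 to 9.81, and all 5 of its probe sets were below the range (log2 difference -4.67, SE 0.123, adjusted p = 4.60e-17 from limma). F3, tissue factor, read 7.22, 6.5 and 6.66 against 10.17 to 12.30 (-4.41, SE 0.115). The urokinase gene PLAU read 6.38, 6.20 and 6.31 against 8.29 to 11.13 (-3.49, SE 0.0755), and its receptor PLAUR read 6.88, 6.98 and 7.00 against 7.93 to 9.64 (-1.85, SE 0.0731). TIMP2, a metalloproteinase inhibitor, and PLAT were set apart at -3.15 and -3.90, the latter at -4.60 without SCC25 and -3.15 without SCC047.

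Mesenchymal genes, which mark fibroblast-like states in carcinoma lines, did not move as 1 block. Of 26 members 19 passed as lower (73.1%, where 34.4% of all genes did) and 5 as higher, 13 lay below the range (50.0%, where 9.46% did) and 2 above, and the median difference was -1.94. Beside MSN, TGFBI and THBS1, the caveolae genes CAV1 and CAV2 were set apart lower. CAV1 read 8.10, 8.19 and 8.35 against 11.83 to 13.35 (log2 difference -4.39, SE 0.0700, adjusted p = 3.90e-20 from limma), and CAV2 read 9.16, 8.59 and 8.96 against 11.20 to 12.04 (-2.61, SE 0.0880). ACTA2, smooth muscle actin, read 4.77, 4.95 and 4.8 against 6.78 to 9.50 on the probe set used, the only 1 of its 3 below the range (-3.49, SE 0.0691). IGFBP7 read 9.79, 5.72 and 6.66 against 9.81 to 11.75, so replicate 1 all but reached the other lines; its difference was -3.75 with all arrays, -4.95 without replicate 1 and -2.91 without replicate 2. In the other direction PRRX1, a mesenchymal homeobox factor, read 6.62, 6.28 and 6.42 against 4.36 to 4.89 (1.80, SE 0.0731), and the cadherin CDH11 read 7.61, 7.09 and 7.06 against 4.42 to 6.16 (2.13, SE 0.118). VIM, vimentin, which was named after its values were seen, was neither: it read 10.80, 9.34 and 9.58, inside the 6.45 to 11.29 of the other lines.

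Epithelial markers were present in SCC090, with keratin 14 the exception among the basal ones. SFN read 13.49, 13.59 and 13.59 and CDH1, E-cadherin, 11.02, 11.38 and 11.40, against 12.73 to 13.62 and 10.13 to 11.22 in the other lines. EPCAM read 11.40, 11.31 and 11.47 against 8.76 to 11.36, and the desmosomal genes DSG3, DSC3 and PKP1 averaged 8.56, 10.09 and 10.92. KRT5 read 9.72, 11.15 and 10.91, below the 11.48 to 13.37 of all other arrays but within 1 log2 unit of 93VU147T. KRT14 read 7.21, 5.08 and 5.02, in the range of SQ20B (4.85 ± 0.26, SD, n = 3) and 93VU147T (7.05 ± 0.53) and far from SCC25 (14.20 ± 0.01). KRT6A and TP63, also among the markers fixed for squamous cells, were not analysed here. Markers of other cell types were low: 8 leukocyte markers had means of at most 5.72 in SCC090, 8 endothelial markers at most 6.01, and of 5 melanocyte markers MITF was the highest at 7.56, where the other lines ran from 6.33 to 8.56. Of 9 fibroblast markers COL1A1 was highest at 8.09, inside the 5.28 to 9.59 of the others, 6 passed limma as lower and 1 as higher, and PDPN was set apart lower (-2.73, SE 0.0985).

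Epithelial identity genes otherwise split in both directions. Of 14 squamous and basal genes, 5 passed as higher and 8 as lower, and SOX2 was the 1 set apart. Of 29 keratinocyte differentiation genes, 13 passed as higher and 10 as lower, with 5 above the range and 4 below. CNFN, a cornified envelope protein, read 7.38, 8.32 and 8.27 against 4.91 to 5.93 (log2 difference 2.6, SE 0.135, adjusted p = 1.61e-12 from limma). MAL, a mucosal sorting protein, read 6.52, 8.01 and 7.85 against 5.28 to 5.70 (2.03, SE 0.180), and the desmocollin DSC2 read 10.96, 11.45 and 11.43 against 7.90 to 10.36 (2.48, SE 0.0944). These 3 were above every other array. In contrast TGM1, the cross-linking enzyme of the cornified envelope, read 5.49, 5.64 and 5.84 against 6.47 to 9.23 (-1.95, SE 0.112), and the kallikreins KLK10 and KLK7 were set apart lower. KLK10 was below the range on 1 of its 2 probe sets. Of 23 junction genes and regulators, 11 passed as higher and 10 as lower. The epithelial regulator GRHL2 read 8.77, 8.98 and 8.95 against 6.44 to 7.98 (1.58, SE 0.103), while the tight junction gene CLDN1 read 7.62, 8.23 and 8.20 against 9.19 to 12.14 (-2.74, SE 0.115). EHF and P-cadherin, CDH3, were set apart lower at -2.59 and -1.56, although EHF was below the range on 1 of its 6 probe sets. Of 6 simple keratins 2 passed as higher and 3 as lower. KRT7 was set apart lower, at 4.42, 4.65 and 4.86 against 6.65 to 9.29 (-3.09, SE 0.110), on 1 of 4 probe sets. The largest difference of this list went the other way, at 4.64 in KRT19, named after its values were seen. KRT19 read 12.70, 13.51 and 13.45 against 3.69 to 13.14, with SCC047 near it at 13.11. Of 28 mucosal and secretory genes 3 passed as higher and 15 as lower. AGR2, a disulfide isomerase of secretory cells, was set apart higher at 8.90, 8.46 and 8.62 against 4.33 to 7.05 (2.82, SE 0.110), as was MUC15 (2.99, SE 0.194). The protease inhibitor SLPI, lipocalin LCN2 and ALDH1A3, which makes retinoic acid, were set apart lower at -3.04, -3.36 and -4.92. ALDH1A3 was below the range on 1 of its 2 probe sets.

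Notch pathway genes, through which neighbouring keratinocytes signal to each other, were more often higher than the mean of the 5 other lines. Of 21 members 13 passed as higher (61.9%, where 28.6% of all genes did) and 3 as lower, 4 lay above the range (19.0%, where 10.6% did) and 0 below, and the median difference was 0.43. Against SCC047 and 93VU147T alone the list was more evenly split. There 9 passed as higher and 7 as lower (27.2% and 35.4% of all genes), with a median of 0.27. In 11 of the 21 at least 1 of these lines had a higher mean than SCC090. HEY1, a repressor that Notch induces, read 11.92, 11.93 and 11.88 against 5.44 to 8.85, without overlap (log2 difference 4.70, SE 0.154, adjusted p = 1.29e-15 from limma). Its relative HEY2 read 8.06, 9.29 and 9.12 against 4.33 to 6.39 (3.56, SE 0.165). The receptors NOTCH3 and NOTCH1 were set apart too. NOTCH3 read 9.53, 10.07 and 10.01 against 5.08 to 8.71 (3.09, SE 0.151), and NOTCH1 read 8.56, 9.20 and 9.18 against 6.67 to 7.71 on the probe set used, 1 of 2 above the range (1.72, SE 0.122).

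The Wnt pathway held large differences both ways, with 16 of 39 members higher and 16 lower. LEF1, the nuclear partner of beta-catenin, read 8.29, 8.55 and 8.60 against 3.92 to 5.34, without overlap (log2 difference 4.08, SE 0.102, adjusted p = 2.18e-17 from limma). The ligand WNT5A read 8.44, 9.0 and 9.0 against 3.48 to 6.72 (4.05, SE 0.119). The secreted inhibitors went opposite ways. WIF1 read 4.59, 6.46 and 6.67 against 3.15 to 3.38, above the range, with a difference of 2.63 (SE 0.246), or 3.29 without replicate 1. DKK1 read 7.25, 6.43 and 6.61 against 10.18 to 11.86, below it (-4.36, SE 0.123). The ligands WNT10A and WNT7A were set apart lower at -1.86 and -1.68, and WNT10A was below the range on 1 of its 2 probe sets.

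Of 90 developmental transcription factors 31 passed as higher and 39 as lower, and beside FOXE1 5 were set apart higher. ID4, an inhibitor of basic helix-loop-helix factors, read 9.10, 9.34 and 9.44 against 3.53 to 7.41 (log2 difference 3.64, SE 0.104, adjusted p = 1.60e-16 from limma). IRX5, BARX1, PITX1 and TBX3 differed by 2.15, 1.89, 1.88 and 1.74. The 7 set apart lower were SOX15, GATA6, DLX1, DLX2, IRX2, GATA3 and PAX6. SOX15 read 5.01, 5.30 and 5.45 against 8.55 to 9.55 on the probe set used (-3.86, SE 0.0882), and GATA6 read 4.70, 4.28 and 4.78 against 7.14 to 9.50 (-3.77, SE 0.0895). GATA3, a factor of squamous and luminal epithelium, read 4.46, 4.44 and 4.36 against 5.41 to 8.80 (-2.58, SE 0.0650). GATA6 and DLX2 were each below the range on 1 of their 2 probe sets, and GATA3 on 2 of its 3. Of 28 HOX genes 6 passed as higher and 18 as lower, and HOXB4 was the 1 set apart, at 7.67, 7.96 and 7.86 against 6.30 to 6.66 (1.39, SE 0.0657). Many HOX genes were dim, with a median level of 5.38 in SCC090 and 5.75 in the other lines, and the median difference was -0.39.

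**Figure D4:**
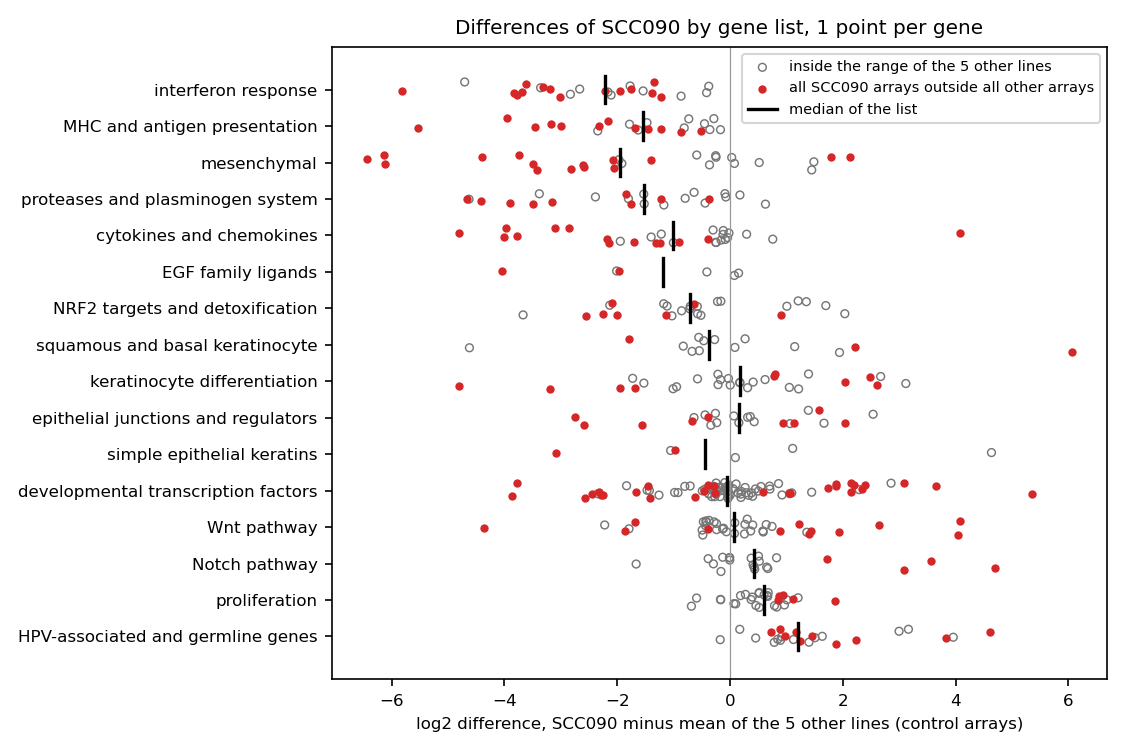
Each point is 1 gene of a list, placed at its log2 difference between SCC090 and the mean of the 5 other lines in the control arrays; filled red points have all SCC090 arrays outside all other arrays, open points do not, and the black bar is the median. The medians run from -2.21 for the interferon response at the top to 1.21 for the HPV-associated and germline genes at the bottom, with both directions present in the Wnt and developmental lists.

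Ligands of the EGF family bind EGFR or its relatives. Of 6 measured members 4 passed as lower than the mean of the 5 lines and 0 as higher, with a median difference of -1.19. Of the 5 other than NRG1, 3 passed as lower. Against the 2 other HPV-positive lines alone the list was not lower as a whole. There 1 of the 6 passed as higher and 2 as lower, with a median difference of 0.05. NRG1, a neuregulin that binds ERBB3, read 5.79, 4.64 and 5.09 against 8.01 to 10.42 (log2 difference -4.04, SE 0.183, adjusted p = 2.11e-13 from limma) and was below the range on 3 of its 6 probe sets. TGFA read 7.21, 6.32 and 6.40 against 7.68 to 9.27 (-1.97, SE 0.117). Of 25 other growth factor receptors 10 passed as higher and 9 as lower, where 28.6% and 34.4% of all genes did. MERTK, of the same receptor family as AXL, ran opposite to it, at 8.22, 8.30 and 8.47 against 4.18 to 5.56 (3.78, SE 0.115), although its 3 probe sets disagreed, with 2 above the range and 1 below. TGFBR3 was set apart higher (2.19, SE 0.143), and TGFBR2 and EPHA2 lower (-2.24, SE 0.0750, and -1.91, SE 0.0721).

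Genes that report ERK activity did not move 1 way: of 18, 7 passed as higher and 8 as lower. In 5 of them, CCND1, DUSP6, ETV5, PHLDA1 and SPRY2, replicate 1 read at least 1 log2 unit above both other SCC090 arrays, and without it 7 passed as higher and 10 as lower. DUSP6, an ERK phosphatase, read 9.93, 7.95 and 7.96 against 8.14 to 9.62, and its difference was -0.2 with all arrays and -0.86 without replicate 1. DUSP6, ETV5 and SPRY2 were named after their values were seen. FOSL1, an AP-1 subunit, read 5.86, 5.06 and 5.32 against 7.25 to 10.88 (log2 difference -3.46, SE 0.134, adjusted p = 1.72e-14 from limma). MYC read 9.12, 9.49 and 9.39 against 10.73 to 12.23 (-2.23, SE 0.0867), and the ERK phosphatase DUSP5 read 4.93, 5.16 and 4.92 against 7.02 to 9.68 (-3.32, SE 0.0944). CCND1, cyclin D1, read 6.45, 4.68 and 4.82 against 8.27 to 10.35 (-3.86, SE 0.220). All 4 were below every other array. PHLDA1 was also set apart lower, at -3.0 with all arrays and -3.72 without replicate 1, and 2 of its 6 probe sets were below the range. ETV1 and EPHA4 were set apart higher, at 1.24 (SE 0.0964) and 1.66 (SE 0.0843). Of 13 cell cycle inhibitors and cyclins, 7 passed as higher and 4 as lower, 0 lay above the range and 3 below, and the median difference was 0.20. CCND2, described above, and CDK6, the kinase that D cyclins activate, were the 2 set apart, both lower. CDK6 read 5.82, 4.75 and 4.99 against 7.70 to 10.15, below the range on all 7 of its probe sets (-4.15, SE 0.152, adjusted p = 6.98e-15 from limma).

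CDKN2A was high in SCC090, as in the other HPV-positive lines, and was not outside the range. It read 11.32, 10.75 and 10.67 in SCC090. The means of the other lines were 12.09 ± 0.09 in 93VU147T, 11.59 ± 0.03 in SCC047, 9.95 ± 0.10 in SCC61, 6.89 ± 0.15 in SQ20B and 5.88 ± 0.03 in SCC25 (SD, n = 3 each). The difference from the mean of the 5 was 1.64 (SE 0.0972, adjusted p = 1.41e-11 from limma) and the choice of lines set its size, from 0.79 without SCC25 to 2.34 without 93VU147T. Against the 2 other HPV-positive lines it was lower, by a log2 difference of -0.92 (SE 0.109, adjusted p = 3.42e-07). Of 24 genes of the HPV-associated and germline list, 23 passed as higher (95.8%, where 28.6% of all genes did) and 1 as lower, 10 lay above the range (41.7%, where 10.6% did) and 0 below, and the median difference was 1.21. The mean of the 5 lines includes 3 HPV-negative lines. Against SCC047 and 93VU147T, 17 of the 24 passed as higher and 1 as lower, with a median of 0.85, and in 9 at least 1 of these lines had a higher mean than SCC090. RNF212, STAG3 and MEI1, named after their values were seen, averaged 8.39, 7.60 and 7.62 in SCC090 and 8.82, 8.40 and 8.04 in 93VU147T. CCNE2, cyclin E2, read 9.45, 9.33 and 9.69 against 5.64 to 8.79, without overlap (2.24, SE 0.142). The germ cell genes TAF7L and ZNF541 were set apart at 1.89 (SE 0.0874) and 1.17 (SE 0.0813), beside NEFH. Of 29 proliferation genes 22 passed as higher (75.9%, where 28.6% of all genes did) and 2 as lower, with a median of 0.60. CENPF, a kinetochore protein, was the 1 set apart, at 10.27, 10.67 and 10.69 against 7.51 to 9.51 (1.85, SE 0.113). Of 20 cancer testis antigens 3 passed as higher and 11 as lower, and PRAME was set apart higher (2.20, SE 0.122). Most of this list was dim, with a median level of 3.89 in SCC090 and 4.33 in the other lines, and the median difference was -0.21.

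Comparing SCC090 with only SCC047 and 93VU147T, which share its HPV class, gave 5360 genes higher (27.2%) and 6981 lower (35.4%) in limma. This balance depended on the scaling of the arrays: with each array centred on its median the counts were 6194 higher and 5043 lower, and with quantile normalization 5580 and 5514. By construction the genes set apart lie outside these 2 lines as well, and all 469 and 349 passed limma in the same direction there. EGFR was lower than in the 2 lines by a log2 difference of -1.53 (SE 0.140, adjusted p = 9.43e-09), IFIT3 by -5.71 (SE 0.135, adjusted p = 1.19e-17) and MSN by -6.06 (SE 0.100, adjusted p = 1.37e-19), while NTS was higher by 8.61 (SE 0.270, adjusted p = 8.17e-16) and HEY1 by 4.08 (SE 0.172, adjusted p = 7.76e-14).

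Stress and survival genes passed in both directions. Of 17 p53 targets 10 passed as higher and 7 as lower. The death receptor FAS read 4.17, 4.22 and 4.56 against 7.48 to 9.10, below the range on all 5 of its probe sets (log2 difference -3.86, SE 0.0749, adjusted p = 5.69e-19 from limma). TP53INP1 read 9.56, 9.47 and 9.46 against 4.48 to 8.76 (2.67, SE 0.0874). CASP4, an inflammatory caspase, was the 1 set apart of 18 apoptosis regulators and neighbours of YAP1, of which 3 were higher and 11 lower (-2.22, SE 0.0845). It was below the range on 1 of its 2 probe sets. Of 25 targets of the oxidative stress factor NRF2 and detoxification genes, 6 passed as higher and 17 as lower, and NQO1, ME1 and ABCC3 were set apart lower at -2.0, -2.08 and -2.55. Of 22 hypoxia and glycolysis genes 7 were higher and 12 lower, with VEGFA set apart at -1.41 (SE 0.129). Of 23 neuronal and neuroendocrine genes 4 passed as higher and 8 as lower, and CHGB, chromogranin B, was set apart higher at 5.88, 5.41 and 5.37 against 3.74 to 4.13 (1.62, SE 0.0971).

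Some of the genes outside the range lay next to each other on the chromosomes. In windows of 20 neighbouring tested genes the median number above the range was 2, and the highest was 14, between RPS29 and SAV1 on chromosome 14. Their differences were moderate, with a median of 0.80 over the window: POLE2, a subunit of DNA polymerase epsilon, was higher by 1.74 (SE 0.0680) and KLHDC2 by 1.32 (SE 0.0741), while ATL1, a GTPase of the endoplasmic reticulum, was the 1 set apart at 8.33, 8.15 and 8.21 against 3.89 to 6.70. CDKL1 in the same window was below the range, at -1.72. A window on chromosome 1 from TAF1A-AS1 to WDR26 had 13 above, with a median of 1.06. SUSD4, a complement inhibitor, read 8.51, 8.51 and 8.54 there against 5.30 to 6.15, and DISP1, needed to release Hedgehog ligands, read 6.99, 6.73 and 6.69 against 4.31 to 5.37. A window on the same chromosome from S100A13 to HAX1 had 12 above and a median of 0.52, with ILF2 set apart at 1.26. Among windows below the range the highest count was 11, in a pair of windows on chromosomes 11 and 19. From CCDC85B to RIN1 on chromosome 11, where FOSL1 lies, the median was -0.58, and CST6, a cysteine protease inhibitor, read 4.53, 4.53 and 4.67 against 6.19 to 7.73. From CLEC11A to SIGLEC7 on chromosome 19 lies the kallikrein cluster, whose products are secreted serine proteases of the epidermis. KLK8 read 5.07, 5.18 and 5.05 against 7.91 to 10.80, and KLK10 read 4.12, 4.30 and 4.27 against 6.03 to 12.20. On the probe sets used both were without overlap and were set apart at -3.94 (SE 0.0791) and -4.8 (SE 0.0943), the latter at -5.49 without SQ20B and -4.04 without SCC047. KLK5, KLK6, KLK7 and KLK11 were below the range as well, at -3.20, -1.68, -1.68 and -1.31. On chromosome X, from TCEANC to CTPS2, 10 genes were below and 2 above, with CLTRN at -3.03 and GPM6B at 1.87. Neighbouring genes were not compared with DNA copy number, which was not analysed here.

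The differences were present again in the cetuximab arrays. These did not enter the call of genes set apart, although they count in the mean over 42 arrays by which each gene's probe set was picked, as do the HaCaT arrays. Of the 469 genes set apart higher, 455 (97.0%) were again above all 15 treated arrays of the other lines, where 11.0% of all genes were. Of the 349 set apart lower, 338 (96.8%) were again below, where 9.02% of all genes were, and 0 of either group were outside on the opposite side. The median difference was 1.92 in the treated arrays against 2.12 in the control arrays for the higher genes, and -2.6 against -2.61 for the lower ones. Among the set-apart genes named by symbol, TGM1, PLAUR, VEGFA and WNT7A were not outside the range there, and the VEGFA difference was -0.33 in place of -1.41. In SCC090 itself cetuximab changed 38 of the 469 and 26 of the 349, where 1.40% of all genes passed. The control arrays by which these genes were chosen also enter this change, so that share is no test of the counts. Untreated HaCaT keratinocytes, which are not cancer cells, did not enter the call either: 446 of the 469 were also above all 3 HaCaT arrays and 326 of the 349 below them. No share over all genes was computed beside these HaCaT counts. Among the exceptions were HMCN1, at 8.72 to 8.93 in HaCaT, MGST1, at 4.32 to 4.75, and ID4, at 10.14 to 10.24. The same lines supply both sets of arrays, so this shows that the differences recur in other arrays of these lines and says nothing about further lines. The genes are not independent of each other.

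**Figure D5:**
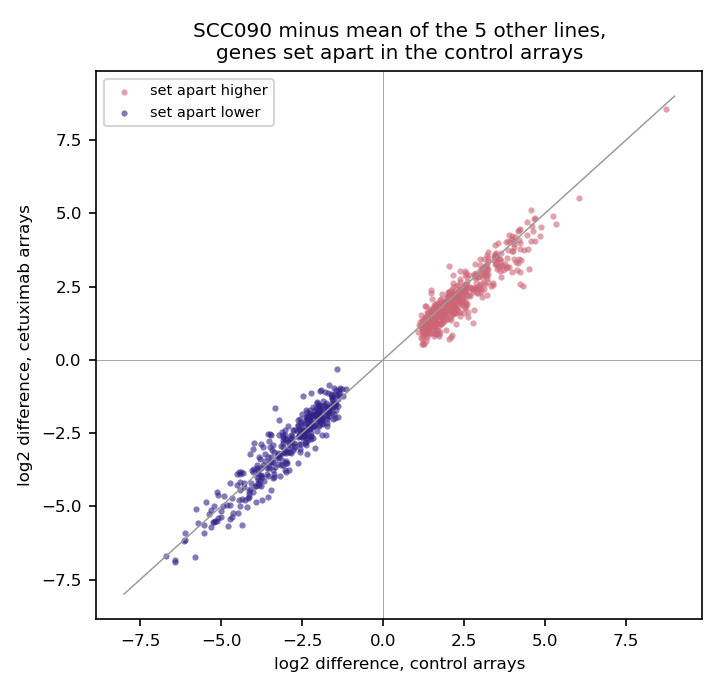
Each point is 1 of the 818 genes set apart in the control arrays, with its log2 difference between SCC090 and the mean of the 5 other lines in the control arrays on the horizontal axis and in the cetuximab arrays on the vertical axis; the grey line marks equal values. All points keep their sign, with median differences of 2.12 and 1.92 among the higher genes and -2.61 and -2.6 among the lower genes.

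The size of the difference did change for part of the genes. In limma 2978 of 19740 genes (15.1%) had a difference from the other lines that itself differed between cetuximab and control arrays, a set that also holds genes that moved in the other lines and not in SCC090. In the mean of the 5 other lines 50.1% of all genes passed between cetuximab and control arrays. EGFR was not among them (-0.05, SE 0.152, adjusted p = 0.876), nor were NTS (-0.17, SE 0.358, adjusted p = 0.793) and MSN (-0.04, SE 0.138, adjusted p = 0.880). IFIT3 was: its difference was -5.82 in the control and -6.72 in the cetuximab arrays (change -0.90, SE 0.147, adjusted p = 0.000111), and the SCC090 arrays read 3.60, 3.73 and 3.67 under cetuximab.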

How the data were processed

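Deposited arrays of 6 HNSCC lines were used, with 3 control and 3 cetuximab arrays each. The authors made log2 values per probe set with fRMA 1.16.0, which corrects background, normalizes against frozen quantiles and summarises probes robustly, and the deposited log2 values were used unchanged. Their methods also name pSVA, a batch correction, without saying if these deposited files include it. A correction of this kind, like quantile normalization, can shrink differences shared by many genes. Array medians were 5.09 to 5.16, and 3 arrays per group limit the precision.

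Of 54675 probe sets, 41091 carried 1 gene symbol, 1801 several and 11721 none in the annotation used. Where a gene had several, the one brightest on average in the 42 arrays stood for it, which gave 19740 genes. Y-linked genes, XIST and TSIX were left out. In limma 3.58.1 under R 4.3.3, 6 line means were fitted to the 18 control arrays (12 residual and 6.69 prior degrees of freedom), SCC090 was contrasted with the mean of the 5 other line means, with Benjamini-Hochberg adjustment across the whole table. All adjusted p-values in the text are from these limma fits. The cetuximab arrays were fitted alike, and the difference between both contrasts in a fit of all 36 arrays. The steps were tested on simulated data.

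The genes named are the 20 set apart above and the 20 below with the largest distance to the nearest line, EGFR, ERBB2, ERBB3 and CDKN2A, the set apart members of 31 lists (up to 8 per direction, or the member with the largest difference), the cell type markers fixed for the line, and up to 6 genes per window. Gene positions and promoters are from RefSeq. Members and lists were chosen with earlier results of these data known. Replicate numbers did not pair the arrays (mean correlation of same-numbered deviations -0.03 in the control arrays, lowest pair -0.27). Alternatives were other choices of probe set, a filter on dim genes, centred or quantile normalized arrays, all 36 arrays in the fit, trend and robust moderation, a replicate block, other distances and window sizes, and each line or array left out.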

Additional observations from a re-analysis of the deposited data

Results flagged for a closer look

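In 18 of the 44 genes named as furthest from the other lines or as EGFR family and CDKN2A genes, the difference of SCC090 from the mean of the 5 other lines itself differed between the cetuximab and the control arrays (limma, adjusted p under 0.05, where 15.1% of all genes passed). Values are the log2 difference in cetuximab arrays minus that in control arrays. The 20 genes above and the 20 below were chosen by their distance in the control arrays, which also enter this difference. Neither the count of 18 nor the direction of the changes is therefore independent of that choice, and the 15.1% is no test of it. Between the cetuximab and control arrays, 5 of the 18 changed in SCC090 itself (COL15A1, SOX2-OT, TRMO, EFEMP1 and C19orf33), and 14 changed in the mean of the 5 other lines (limma, adjusted p under 0.05, where 1.40% and 50.1% of all genes passed). Of these, 2 passed on both sides, TRMO and EFEMP1, and LAMB1 passed on neither.

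Among the flagged genes that SCC090 expresses above the other lines the difference was smaller in the cetuximab arrays. COL15A1 changed by -1.80, from 4.33 to 2.53, and the SCC090 control arrays of this gene spread from 6.08 to 9.68. SOX2-OT changed by -1.40, from 4.52 to 3.12, with control arrays from 6.58 to 8.45. ABCA13 changed by -1.06, FOXE1 by -0.71, its neighbour TRMO by -0.64 and AMDHD1 by -0.61. ERBB3, which lay inside the range, changed by -0.33.

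Among the flagged genes that SCC090 expresses below the other lines both directions occurred. The difference was larger in the cetuximab arrays for COL12A1 (-0.84), LAMB1 (-0.73), TRIM6 (-0.73), MGST1 (-0.45), TGFBI (-0.41), IGFBP6 (-0.38) and UCA1 (-0.36). It was smaller for ETS1 (0.67), CCND2 (0.60), C19orf33 (0.59) and EFEMP1 (0.50). All 17 genes other than ERBB3 were outside the range in both sets of arrays.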

How the results depend on the processing

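Of 290 counts and shares recomputed under other settings, 286 stayed within 1.5 times the reported value, and the 4 that did not are those that define the distance itself: at least 0.5 log2 units to the nearest line gave 1165 genes higher and 748 lower, and at least 2 gave 124 and 129. Leaving out 1 array at a time gave 5361 to 5685 genes higher and 5870 to 6893 lower in limma, 2096 to 2456 above and 1897 to 2481 below the range, and 460 to 491 set apart higher and 345 to 371 lower. The comparison with SCC047 and 93VU147T gave 5107 to 5369 higher and 6242 to 7005 lower in this way, and the cetuximab arrays 5037 to 5484 and 5153 to 5749. Of the 818 genes set apart, 772 (without SCC090 replicate 1) to 817 were set apart again. The mean of all probe sets of a gene kept 617 of the 818, the largest loss, with 396 higher and 262 lower. Centred arrays kept 771 and quantile normalization 774. Of 62 counts of list members that passed limma, recomputed without SCC090 replicate 1 as a choice made after seeing the data, 60 stayed within 1.5 times, and lower endothelial markers went from 3 to 1 and lower melanocyte markers from 2 to 1. A filter on dim genes left 5072 higher and 4676 lower. With the replicate number as a block, limma gave 5607 higher and 6705 lower and the same 818 genes; the numbers do not pair the arrays. The block changed no other call on the named genes.

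Of 4400 values of 142 named genes, 4397 kept direction and call. FBLL1 reversed to -0.20 (limma adjusted p = 0.0118) on the probe set with the highest ratio of median absolute deviations, and PECAM1, an endothelial marker, lost its call there (-0.22) and in the mean of its probe sets (-0.05). The causes were not tested. Genes dim in every line have only probe background to separate them, and a fold near that floor understates the change.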
